A study of Saccharomyces cerevisiae with 18 samples.

Results

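The pheromone-response and cell fusion genes of budding yeast described here were 10 genes, taken by name: GPA1, FUS3, STE12, KAR4, AGA1, FIG2, FIG1, FUS1, FUS2 and PRM1. They were followed among 6218 genes measured in germinating spores. Their symbols were looked up in the first annotation column of the scanner files, where 9 were found, and PRM1 was found by its systematic name, YNL279W. Each was present as 2 spots on every array. Of the 10, 9 could be tested, as could 5826 genes in all, because AGA1 had no usable spot at 48 and 96 min in YPD and is described separately.

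Haploid yeast cells of the mating types a and alpha each secrete a peptide pheromone and carry a receptor for the pheromone of the opposite type. The occupied receptor releases a G protein, a MAP kinase cascade is switched on, and the transcription factor Ste12 turns on genes for cell adhesion, cell fusion and nuclear fusion. Most of these genes are kept low in diploid a/alpha cells, so that their transcripts mark haploid cells and, at high levels, cells that sense a partner.

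Spores were made from diploid cells of the Y55 background, which carries HO, the gene for mating-type switching, together with gal3 and the MAL and SUC alleles given in the study's methods, and this background was common to all samples. Purified spores were transferred to YPD, the usual rich growth medium with yeast extract, peptone and 2% glucose, or to 2% glucose alone. They were sampled at 0 min, at 4, 8, 16 and 32 min, and again at 48, 64, 96 and 128 min. RNA of each time point was labelled with Cy5 and hybridised to spotted 2-colour arrays with Cy3-labelled RNA of the dormant spores, without dye swaps. There were 3 arrays for each of the 18 combinations of medium and time, except 2 for glucose at 0 min, which makes 27 arrays in YPD and 26 in glucose. Spores of both mating types were germinated together, so a level is an average over them, and more responding cells cannot be told apart from more RNA per cell. In the same way the mating-type switching that HO allows was not followed.

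The value given throughout is the log2 ratio of Cy5 over Cy3, that is, the level at a time point relative to dormant spores after background correction and loess normalization. A value of 0 means the level of dormant spores and 1 means 2-fold above it. A change was called when the p of limma's test, adjusted by Benjamini-Hochberg over the 5826 genes, was below 0.05. All comparisons with time 0 in a medium share the same 0 min arrays.

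Correlations between replicate arrays over all genes ran from 0.644 to 0.942 in YPD. In glucose they ran from 0.644 to 0.918 from 16 min on, and from 0.0668 to 0.698 between 0 and 8 min. At 0 min the correlation was 0.230 in glucose, against 0.695 to 0.803 in YPD. The cause of the low early values in glucose was not tested. The median spot was 1.34 to 2.44 times its background in Cy3 and 1.62 to 3.63 times in Cy5. In Cy3 the share of spots above background (signal over the background by 2 SD) ran from 36.7% to 92.5% between arrays. A second array layout was used for 11 arrays, all of them in glucose, including the third replicate from 16 min on. In YPD, arrays of one time point were mostly quantified on one day, while in glucose each time point was spread over more than 1 day. Day and time can thus be separated only in part. Values with day as a block are given with the comparison of the media.

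Of the 13 markers of spore formation, 4 were called down in YPD at 128 min, where 25.8% of all genes were, 1 was called up and 8 were not called, with a median change of -0.17. SPS100, a gene of late sporulation, changed by -6.25 ± 0.32 at 96 min (SE, adjusted p = 1.08e-14, 3 arrays). At 128 min it had 1 usable array, at -6.20, which gives no spread of its own. None of the 9 tested genes of the G1 to S phase transition was called at 128 min in YPD, among them the cyclins CLN1 and CLN2. Of all genes, 18.5% were called up and 25.8% down at that time. CLN2, CLB6, POL1 and CDC21 were above background in Cy5 on 0 of 3 arrays there, so a change in them could be missed. Of the 9, 2 were called down at 64 min (28.5% of all genes) and 2 at 96 min (26.3%). The mean log2 ratio over these markers stayed between -0.285 and 0.447 on all YPD arrays. The part of this cell-cycle state in the mating gene values was not tested.

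In YPD, most of the mating genes stayed near the level of dormant spores up to 64 min and were then called up at the same sampled time, 96 min. At 4 and 8 min none of the 9 tested genes was called up, where 7.88% and 10.8% of all genes were. At these times 2 and 3 of the 9 had an unadjusted p below 0.05 in either direction. The share of all genes at that unadjusted threshold was not counted, here or for glucose. One gene, STE12, was called up at 16 min (22.7% of all genes), 32 min (22.4%), 48 min (19.4%) and 64 min (22.9%). At 96 min, 9 of 9 were called up, against 20.4% of all genes, with a median change from 0 min of 1.31 against -0.06 over all genes. At 128 min, 7 of 9 were still called up, against 18.5% of all genes, with a median change of 1.53 against -0.05. The genes below the threshold at 128 min were FUS2 and FIG1.

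**Figure D1:**
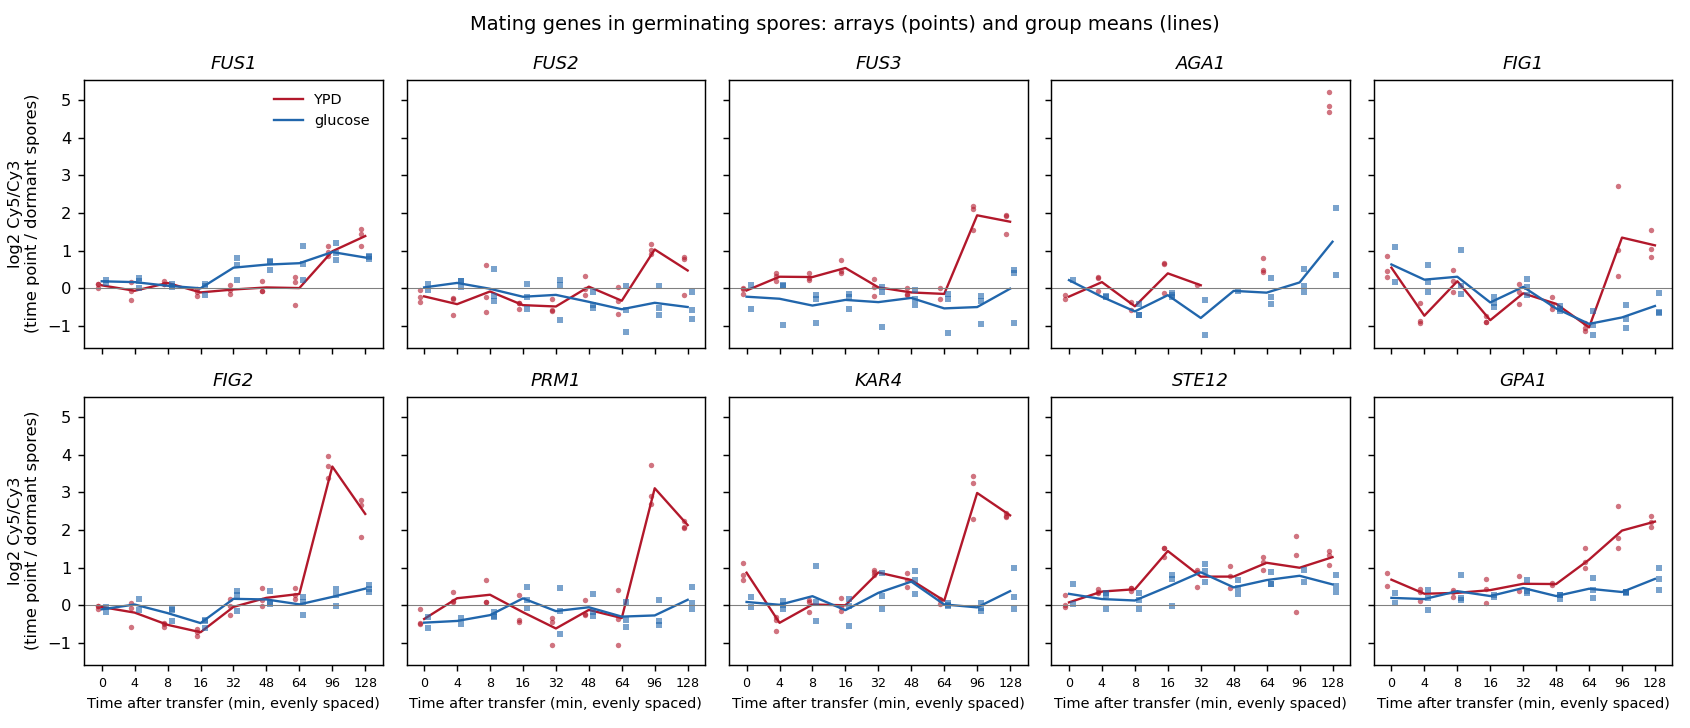
Log2 ratio of Cy5 (time point) over Cy3 (dormant spores) of the 10 mating genes against the sampled times in min, evenly spaced. Points are single arrays, lines join group means, red circles are YPD and blue squares glucose, and a line is broken where AGA1 has no usable spot. Most red lines leave 0 between 64 and 96 min, STE12 already at 16 min, while the blue lines stay below 1 up to 128 min except that of AGA1 at the last time.

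The mean log2 ratio over the 9 genes on single arrays shows how sharp the step was. It lay between 0.04 and 0.22 on the 3 arrays at 64 min in YPD. The 96 min arrays ran from 1.53 to 2.51, and those at 128 min from 1.45 to 1.86. The ranges at 96 and 128 min did not overlap with that at any earlier time, the highest earlier value being 0.26 at 0 min. In glucose the same mean never passed 0.33, a value reached on one array at 128 min.

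The time of onset was set as the first time at which a gene was called up against 0 min and again at the next sampled time, or at 128 min, the last one. By this rule the onset in YPD was 96 min for 6 genes, FUS1, FUS3, FIG2, PRM1, KAR4 and GPA1, and 16 min for STE12. FUS2 and FIG1 had none, since they were called at 96 min but not at 128 min. With the criterion of a mean of at least 2-fold over dormant spores at 2 consecutive times, FUS3, FIG2, PRM1 and KAR4 again had an onset at 96 min, FIG1 now had one at 96 min and GPA1 at 64 min, while STE12, FUS1 and FUS2 had none. When a call and a change of at least 2-fold from 0 min were both asked for, the onset of STE12 and of FUS1 was 128 min, so the onset of STE12 at 16 min holds for the call alone. GPA1 also had its onset at 64 min when flagged spots were kept.

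GPA1 encodes the alpha subunit of the G protein that the pheromone receptors act on. Its log2 ratios in YPD were 0.51 and 0.84 at 0 min, where replicate 1 had no usable spot, and 1.51, 0.98 and 1.14 at 64 min. They were 1.79, 1.52 and 2.64 at 96 min and 2.38, 2.21 and 2.09 at 128 min. The arrays at 96 and 128 min thus lay above those at 0 and 64 min without overlap, and the 64 min arrays above those at 0 min. The change from 0 min was 0.53 ± 0.25 (SE) at 64 min, which was not called (adjusted p = 0.0678), 1.31 ± 0.25 at 96 min (adjusted p = 3.54e-05), then 1.55 ± 0.25 at 128 min (adjusted p = 2.71e-06). The gap to the 64 min arrays was narrow, 1.51 against 1.52 for the nearest arrays. In Cy3 its spots were above background on 21 of 49 arrays.

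FUS3 encodes the MAP kinase of the pathway. The FUS3 log2 ratios in YPD were 0.01, -0.15 and -0.03 at 0 min, and -0.01 and -0.30 on the 2 usable arrays at 64 min. At 96 min they were 2.10, 1.54 and 2.17, and at 128 min 1.93, 1.95 and 1.43. All late arrays lay well above all earlier ones, of which the highest was 0.75 at 16 min. FUS3 changed from 0 min by 2.00 ± 0.30 at 96 min (adjusted p = 6.85e-07), and the change at 128 min was 1.83 ± 0.30 (adjusted p = 3.62e-06).

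STE12, the transcription factor that binds the promoters of pheromone-induced genes, had a course of its own. Its log2 ratios were 0.28, -0.05 and -0.01 at 0 min, 0.46, 0.45 and 0.36 at 8 min, and 1.52, 1.28 and 1.52 at 16 min. The arrays of these 3 times did not overlap, and 16 min was the highest group mean of the whole course. STE12 changed from 0 min by 1.37 ± 0.27 at 16 min (adjusted p = 5.69e-05), 0.68 ± 0.27 at 32 min (adjusted p = 0.0339), then 1.05 ± 0.27 at 64 min (adjusted p = 0.00122). At 96 min the arrays were 1.32, -0.18 and 1.85, the widest spread of STE12 in any group, and at 128 min 1.33, 1.07 and 1.43. One array at 96 min therefore stood at the 0 min level while the others were high, and the change of 0.92 ± 0.27 (adjusted p = 0.00496) was not called without replicate 1 (0.86, adjusted p = 0.0602) or without replicate 3 (0.45, adjusted p = 0.267). The call at 16 min was kept under all 18 alternatives in which it could be fitted. With quantification day as a fixed block the changes were 0.77 at 96 min (adjusted p = 0.409), then 1.11 at 128 min (adjusted p = 0.242).

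KAR4 encodes a transcription factor that acts with Ste12 on genes of nuclear fusion. Its log2 ratios were 0.67, 0.79 and 1.12 at 0 min, 0.17, 0.04 and 0.14 at 64 min, 3.24, 2.28 and 3.43 at 96 min, and 2.46, 2.34 and 2.37 at 128 min. The 0 min arrays thus stood above those at 64 min and below all late arrays. The rise from 0 min was 2.12 ± 0.27 at 96 min (adjusted p = 1.38e-08), then 1.53 ± 0.27 at 128 min (adjusted p = 9.80e-06). At 0 min KAR4 was above background in Cy5 on 1 of 3 arrays and in Cy3 on none, so its starting level was close to the limit of detection. With quantification day as a fixed block the rise at 128 min was 1.35 (adjusted p = 0.0781).

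Some mating genes were called down from 0 min in YPD before the step. At 4 min these were FIG1 and KAR4 (6.21% of all genes were called down), at 8 min KAR4 (5.46%), at 16 min FIG1, FIG2 and KAR4 (25.8%), at 48 min FIG1 (26.3%) and at 64 min FIG1 and KAR4 (28.5%). None was called down at 96 or 128 min, where 26.3% and 25.8% of all genes were. FIG1 was above background in Cy5 on no array at 0, 4, 8 and 16 min, so no fold is given for it there, and its later falls in YPD start from a level that was not well above background. KAR4 at 4 min was above background on no array either, and its change of -1.33 ± 0.27 (adjusted p = 0.000368) was -0.32 without background subtraction (adjusted p = 0.215). FIG2 had 0 min values of -0.02, -0.03 and -0.10 and 16 min values of -0.71, -0.82 and -0.63, a change of -0.67 ± 0.20 (adjusted p = 0.00545) that was not called without YPD replicate 2 (-0.61, adjusted p = 0.0624). The fall of KAR4 at 64 min was lost without YPD replicate 2 (-0.75, adjusted p = 0.0785) or YPD replicate 3 (-0.63, adjusted p = 0.149) and in 8 of 19 alternatives in all, among them that without background subtraction (-0.07, adjusted p = 0.730).

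The genes of cell adhesion gave the largest changes. FIG2 encodes a cell wall adhesin made during mating. In YPD its log2 ratios were -0.02, -0.03 and -0.10 at 0 min, 0.46, 0.15 and 0.28 at 64 min, 3.38, 3.71 and 3.97 at 96 min, and 2.80, 2.67 and 1.81 at 128 min. The groups at 64, 96 and 128 min did not overlap, with the peak at 96 min. FIG2 changed from 0 min by 3.74 ± 0.20 at 96 min (adjusted p = 2.59e-18), the largest of the 9 tested genes, and 2.48 ± 0.20 at 128 min (adjusted p = 2.30e-13).

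AGA1 encodes the subunit that anchors a-agglutinin to the cell wall. With flagged spots left out, its log2 ratios were -0.17 and -0.28 at 0 min, 0.80, 0.47 and 0.44 at 64 min, and 5.22, 4.85 and 4.68 at 128 min in YPD, with no usable spot at 96 min. The 128 min arrays were the highest of any mating gene in any group. Its Cy3 signal was above background on none of the 3. From the single channels, the bound on the level at 128 min was 25.3-fold that of dormant spores. Here and below such bounds set the mean Cy5 level against the lowest signal counted as above background, or the gene's own if higher. They are open to dye bias because no dyes were swapped. They carry no error and hold for the main processing only. The authors' mean log2 ratio for AGA1 at 128 min in YPD was lower, at 3.14.

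With flagged spots kept, AGA1 could be tested, and all 10 genes were then called up at 96 min in YPD, against 20.9% of all genes. Its 96 min arrays were 3.78, 4.10 and 3.96 and its 64 min arrays 0.88, 0.27 and 0.54, while at 0 min they were -0.18, -0.07 and -0.28. The arrays of these 3 times did not overlap with each other, although the 16 min arrays of 0.63, 0.63 and -0.17 did overlap with those at 64 min. AGA1 changed from 0 min by 0.74 ± 0.25 at 64 min (adjusted p = 0.0111), 4.12 ± 0.25 at 96 min (adjusted p = 1.37e-17), then 4.97 ± 0.25 at 128 min (adjusted p = 3.34e-20). By these values the onset of AGA1 was 64 min, one sampled time before most members. The spots used here were flagged as poor or marked by hand in the scanner files, and the reason for the flags was not tested.

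FIG1 encodes a membrane protein of calcium influx in mating cells. Its log2 ratios in YPD were 0.47, 0.30 and 0.87 at 0 min, 1.02, 0.31 and 2.71 at 96 min, and 1.54, 1.04 and 0.84 at 128 min. The groups overlapped at 96 min, where a single array was far above the others. Its Cy5 spots were above background on 0 of 3 arrays at 0 min and on 3 of 3 at both late times, and its Cy3 spots on 4 of 53 arrays in all. Its change from 0 min, a level not well above background, was 0.80 ± 0.33 at 96 min (adjusted p = 0.0417) and missed the threshold at 128 min with 0.59 ± 0.33 (adjusted p = 0.139). The call at 96 min was lost without YPD replicate 1 (0.93, adjusted p = 0.0905), YPD replicate 3 (0.28, adjusted p = 0.538), glucose replicate 1 (0.80, adjusted p = 0.0590) or glucose replicate 2 (0.80, adjusted p = 0.0511). That at 128 min was gained without YPD replicate 3 (0.90, adjusted p = 0.0302). With plain subtraction of the background the changes at 96 and 128 min had the opposite sign, -3.31 and -3.56.

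PRM1 encodes a membrane protein that acts when the plasma membranes of mating cells fuse. The arrays of PRM1 in YPD stood at -0.49, -0.50 and -0.12 at 0 min, -1.07, -0.36 and 0.40 at 64 min, 2.91, 2.69 and 3.73 at 96 min, and 2.06, 2.24 and 2.09 at 128 min. All arrays at 96 min lay above those at 128 min, and both groups above all earlier ones. PRM1 was above background in Cy5 on no array at 0 min. The single-channel bound on its rise was 8.79-fold at 96 min (change 3.48 ± 0.29, adjusted p = 6.53e-13). At 128 min the bound was 4.25-fold (change 2.50 ± 0.29, adjusted p = 2.87e-09). Both bounds hold for the main processing only. Under the alternatives the change was as low as 1.92 at 96 min and 1.27 at 128 min.

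FUS1 encodes a membrane protein at the tip of the mating projection that is needed for cell fusion, and its spots were above background in both channels on all 53 arrays. Its log2 ratios in YPD were 0.01, 0.10 and 0.12 at 0 min, 0.29, 0.18 and -0.46 at 64 min, 0.86, 0.97 and 1.12 at 96 min, and 1.44, 1.59 and 1.13 at 128 min. The late arrays did not overlap with any earlier one, and 128 min was above 96 min. FUS1 changed from 0 min by 0.91 ± 0.19 at 96 min (adjusted p = 9.53e-05), then 1.31 ± 0.19 at 128 min (adjusted p = 1.88e-07).

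FUS2 encodes a cytoplasmic protein of cell fusion. In YPD FUS2 gave log2 ratios of -0.05, -0.23 and -0.37 at 0 min, 1.17, 0.91 and 1.01 at 96 min, and 0.83, 0.76 and -0.18 at 128 min. At 96 min all arrays were above those at 0 min, while at 128 min one array fell back among them. FUS2 changed from 0 min by 1.25 ± 0.30 at 96 min (adjusted p = 0.000657), then 0.69 ± 0.30 at 128 min (adjusted p = 0.0569). The latter passed the threshold in 9 of 19 alternatives. Among them were the fits without YPD replicate 3, with 0.94 (adjusted p = 0.0415), without glucose replicate 3, with 0.69 (adjusted p = 0.0359), and with print-tip loess, with 0.75 (adjusted p = 0.00758).

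**Figure D2:**
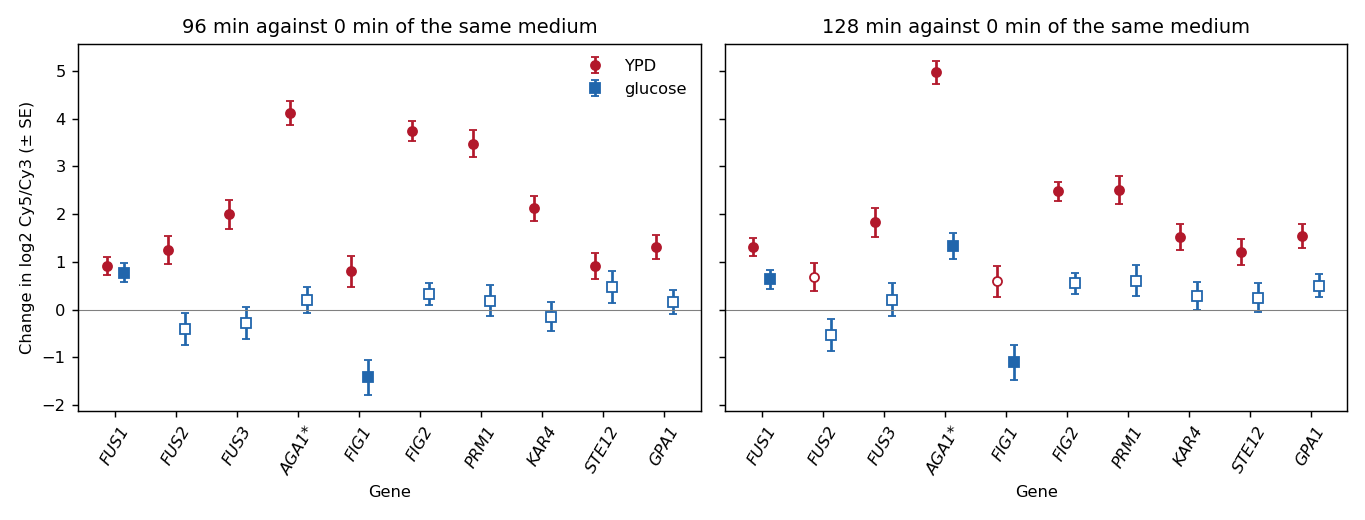
Change in log2 Cy5/Cy3 from 0 min of the same medium at 96 min (left) and 128 min (right) for each mating gene, with the SE of limma's fit as bars. Red circles are YPD and blue squares glucose, filled where the adjusted p was below 0.05; AGA1, with an asterisk, comes from the fit with flagged spots kept. In YPD all 10 changes at 96 min are filled and above 0, from 0.80 for FIG1 to 4.12 for AGA1, while in glucose FUS1 is filled above 0 at both times, AGA1 above 0 at 128 min and FIG1 below 0 at both times.

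In glucose no group mean of the 9 tested mating genes reached 2-fold over dormant spores. The highest were those of FUS1, 0.96 at 96 min, and of STE12, 0.87 at 32 min. The arrays of STE12 at 32 min ran from 0.61 to 1.09, above its 0 min arrays of 0.03 and 0.57. Its change at 32 min was 0.57 ± 0.30 by limma's test, not called (adjusted p = 0.199), and its mean at 128 min was 0.55. None of the 9 tested genes was called up at 4 min (0% of all genes), 8 min (2.44%), 16 min (9.22%), 32 min (8.32%), 48 min (8.41%) or 64 min (11.4%), and at most 2 of the 9 had an unadjusted p below 0.05 at any of these times in limma's fit. FUS1 alone was called up at 96 min (11.5% of all genes) and at 128 min (11.4%). At 128 min the median change from 0 min was 0.29, against -0.02 over all genes, and 4 of the 9 had an unadjusted p below 0.05 in either direction.

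FUS1 was the only tested member called higher in glucose than in YPD before 96 min. Its log2 ratios in glucose were 0.15 and 0.22 at 0 min, 0.79, 0.21 and 0.63 at 32 min, 0.69, 0.48 and 0.71 at 48 min, and 0.22, 0.64 and 1.13 at 64 min. At 96 min they were 0.94, 0.74 and 1.20, and at 128 min 0.78, 0.84 and 0.82. The arrays at 48, 96 and 128 min lay above both arrays at 0 min, and those at 32 and 64 min overlapped with them. The change from 0 min was 0.78 ± 0.21 at 96 min (adjusted p = 0.00435), then 0.63 ± 0.21 at 128 min (adjusted p = 0.0210).

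The call of FUS1 at 128 min in glucose was lost in 7 of 19 alternatives, with changes between 0.23 and 0.68 over all of them. Among them were the fits without glucose replicate 1 (0.62, adjusted p = 0.152) and without glucose replicate 2 (0.65, adjusted p = 0.156), each of which leaves a single 0 min array in glucose. That at 96 min was lost without glucose replicate 1 (0.75, adjusted p = 0.0749) and in 3 other alternatives.

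FUS1 was lower in YPD than in glucose at 32 min (by -0.58 ± 0.19, adjusted p = 0.0203), 48 min (-0.61 ± 0.19, adjusted p = 0.0276) and 64 min (-0.66 ± 0.19, adjusted p = 0.00860). It was the single member called lower in YPD at these times, when 13.6%, 7.93% and 13.5% of all genes were. The difference between media in its change from 0 min was not called at 64 min (-0.55 ± 0.28, adjusted p = 0.284). The direction at the same time held under the alternatives run, but the call was lost in 6 of 17 at 32 min, 8 of 18 at 48 min and 4 of 18 at 64 min. Leaving out YPD replicate 3 or glucose replicate 3 reduced the difference at 64 min to -0.43 (adjusted p = 0.167 and 0.126).

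AGA1 gave another sign of a rise in glucose. With flagged spots left out its values at 128 min were 2.13 and 0.35, with 1 array not usable, and with flagged spots kept they were 1.71, 1.76 and 0.50. All were above the 0 min arrays of 0.21 and -0.24, and the change in that fit was 1.34 ± 0.28 (adjusted p = 0.000253). The lowest of the 3 came from the second array layout. At 96 min the change was 0.21 ± 0.28 (adjusted p = 0.622).

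FIG1 was called down in glucose at 48 min (10.4% of all genes), 64 min (12.6%), 96 min (13.8%) and 128 min (14.1%). Its change at 128 min was -1.10 ± 0.37 (adjusted p = 0.0224), from 0.16 and 1.10 at 0 min to -0.65, -0.64 and -0.12. Its Cy5 spots were above background on 1 of 2 arrays at 0 min and 1 of 3 at 128 min, and the call was lost without glucose replicate 1 (-1.48, adjusted p = 0.0587) or glucose replicate 2, the array at 1.10 (-0.55, adjusted p = 0.555).

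Compared directly at the same time, the media parted at 96 min. At 16 min FUS3 (0.85 ± 0.30, adjusted p = 0.0408) and STE12 (0.95 ± 0.27, adjusted p = 0.00998) were higher in YPD, when 8.62% of all genes were, and at 64 min GPA1 was (0.77 ± 0.22, adjusted p = 0.0102, with 6.30% of all genes). At 96 min 7 of 9 genes were higher in YPD, against 6.09% of all genes, and at 128 min 8 of 9, against 3.02%. At 128 min FIG2 and PRM1 were both higher by 1.99, KAR4 by 2.02, FUS3 by 1.78 and GPA1 by 1.52. KAR4 and GPA1 were already higher in YPD at 0 min, by 0.78 ± 0.30 and 0.48 ± 0.27, neither of them called. In limma's test of the difference in the change from 0 min at 128 min, KAR4 gave 1.24 (adjusted p = 0.112). GPA1 gave 1.04 (adjusted p = 0.134) in that test. The median difference over the 9 was 2.12 at 96 min and 1.61 at 128 min, and -0.02 over all genes at both times. The calls at 16 and 64 min depended on single arrays: that of FUS3 was lost without any one of YPD replicates 1, 2 and 3 or glucose replicates 1 and 2 (adjusted p between 0.0547 and 0.189), that of STE12 without YPD replicate 1 (0.91, adjusted p = 0.0638) or glucose replicate 2 (0.69, adjusted p = 0.151), and that of GPA1 without YPD replicate 1 (0.62, adjusted p = 0.0875) or glucose replicate 3 (0.65, adjusted p = 0.0507).

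The largest differences at 96 min were those of FIG2 (3.47 ± 0.20, adjusted p = 4.13e-17), PRM1 (3.38 ± 0.29, adjusted p = 8.86e-12) and KAR4 (3.04 ± 0.27, adjusted p = 1.03e-11). FIG2 stood at -0.02, 0.42 and 0.26 in glucose at 96 min, PRM1 at -0.53, 0.14 and -0.43, and KAR4 at -0.09, 0.06 and -0.15, so that none came near the YPD arrays. FIG1, not well above background in glucose at 96 min, differed by 2.12 ± 0.33 (adjusted p = 6.46e-06). FUS3 differed by 2.44 ± 0.30 (adjusted p = 7.38e-08), GPA1 by 1.63 ± 0.22 (adjusted p = 7.17e-07) and FUS2 by 1.42 ± 0.30 (adjusted p = 0.000618). AGA1 differed by 3.76 ± 0.25 in the fit with flagged spots kept (adjusted p = 1.81e-15).

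FUS1 and STE12 were the members not called between media at 96 min. The difference of FUS1 was 0.02 ± 0.19 (adjusted p = 0.966), with YPD arrays from 0.86 to 1.12 inside the glucose range from 0.74 to 1.20. With median centring in place of loess it was 0.78 (adjusted p = 0.00507). That of STE12 was 0.21 ± 0.30 (adjusted p = 0.713). At 128 min FUS1 was higher in YPD by 0.57 ± 0.19 (adjusted p = 0.0424), a call that was lost in 10 of 20 alternatives, including the fit without any one replicate except YPD replicate 3. FUS2 was higher by 0.97 ± 0.30 (adjusted p = 0.0290), lost without YPD replicate 1 or 2 or glucose replicate 1 or 2 (adjusted p between 0.0838 and 0.223). STE12 at 128 min missed the threshold, with 0.73 ± 0.27 (adjusted p = 0.0868), and passed it without YPD replicate 2 (0.83, adjusted p = 0.0454).

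All YPD arrays at 96 min were quantified on the same day as 2 of the glucose arrays of that time and had the same layout, and so did those at 128 min. With 3 YPD arrays against these 2 glucose arrays, 7 of 9 genes were higher in YPD at 96 min and 7 of 9 at 128 min. With day as a fixed block, which leaves GPA1 without a value, 7 of 8 genes were called up from 0 min in YPD at 96 min and 4 of 8 at 128 min. With day as a random block they were 9 and 7 of 9. The share of all genes called in these fits was not counted.

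Glucose did not reach the YPD level of onset by 128 min for most of the genes. Each of the 7 genes with an onset was read in glucose at 128 min against YPD at its own onset time. For FUS3, FIG2, PRM1, KAR4 and STE12 the level at onset was also the highest group mean in YPD. No time between 64 and 96 min was sampled, so lower levels at the start of the rise to 96 min were not seen. Of the 6 genes with an onset at 96 min, 5 were lower in glucose, when 3.59% of all genes were lower, and STE12, read at 16 min, was lower too, with 13.5% of all genes. The YPD arrays that set an onset also enter this comparison, which therefore leans towards lower values in glucose. Both shares are over all genes, and the share among genes with the same onset was not counted. FIG2 was lower by -3.25 ± 0.20 (adjusted p = 4.52e-16), with glucose arrays at 0.52, 0.43 and 0.36 against YPD arrays from 3.38 up. PRM1 was lower by -2.97 ± 0.29 (adjusted p = 7.40e-10), KAR4 by -2.61 ± 0.27 (adjusted p = 1.71e-09) and FUS3 by -1.95 ± 0.30 (adjusted p = 9.47e-06). For these genes no glucose array overlapped with the YPD arrays at onset.

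GPA1 came closer, with glucose arrays at 0.99, 0.69 and 0.41 and a difference of -1.29 ± 0.22 (adjusted p = 6.41e-05). STE12 had 0.34, 0.51 and 0.80 in glucose and a difference of -0.89 ± 0.27 (adjusted p = 0.0137), a call lost without YPD replicate 1 (adjusted p = 0.0734), glucose replicate 1 (adjusted p = 0.0815) or glucose replicate 2 (adjusted p = 0.0504). FUS1 was the exception, at 0.78, 0.84 and 0.82 in glucose against 0.86, 0.97 and 1.12 in YPD at onset, next to each other without overlap. Its difference was -0.17 ± 0.19 (adjusted p = 0.660), which does not show equal levels; it was -0.93 with median centring (adjusted p = 0.00103), -0.61 with median spot intensity (adjusted p = 0.0413) and 0.18 with print-tip loess (adjusted p = 0.541). AGA1 in glucose at 128 min was below its YPD level at 96 min by -2.62 ± 0.25 (adjusted p = 1.37e-10) but above that at 64 min by 0.76 ± 0.25 (adjusted p = 0.0262), in the fit with flagged spots kept. The arrays overlapped, since the lowest glucose array, at 0.50, lay below 2 of the 3 YPD arrays at 64 min, the onset by that fit.

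By the rule of calls, FUS1 had an onset in glucose at 96 min, and AGA1 had one at 128 min with flagged spots kept. No other member had an onset in glucose by that rule. By the criterion of 2-fold over dormant spores at 2 consecutive times, none of the 10 genes had an onset in glucose. A rise first seen at 128 min, the last time, could not count by this criterion. In the table of means that the authors deposited, the same criterion gave an onset of 96 min in YPD for FUS3, AGA1, FIG2, PRM1, KAR4 and GPA1, none for STE12, FUS1, FUS2 and FIG1, and none in glucose. The authors' mean for AGA1 at 128 min was 3.14 in YPD and 0.67 in glucose.

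**Figure D3:**
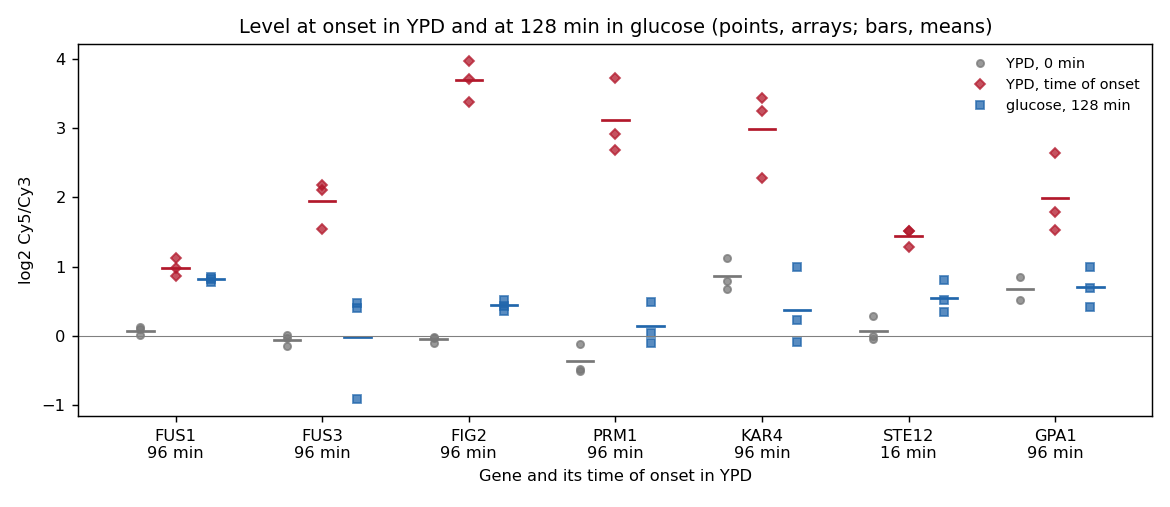
Log2 Cy5/Cy3 on single arrays (points) with the group mean (short bars) for the 7 mating genes with an onset in YPD, whose time is given under each name. Grey circles are YPD at 0 min, red diamonds YPD at the time of onset and blue squares glucose at 128 min. The blue squares of FUS3, FIG2, PRM1, KAR4, STE12 and GPA1 lie below all red diamonds, and those of FUS1 lie just below, by 0.17 on average.

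The members did not all share a profile. Over the 18 group means, the correlation of a gene with the mean of the other tested members was highest for FIG2 (0.945), KAR4 (0.926) and PRM1 (0.925), and lay at 0.894 for GPA1, at 0.875 for FUS3 and at 0.816 for FUS2. It was lower for FIG1 (0.646), FUS1 (0.620) and STE12 (0.378). The closest pair was FIG2 and KAR4 with 0.918, and the most distant FIG1 and STE12 with -0.127. All these groups share 1 reference RNA, and the values describe these arrays only.

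Outside the 10 genes, the profile most like their mean over the 18 groups was that of AGA2, the adhesion subunit of a-agglutinin, with a correlation of 0.965. It was followed by YCLX07W (0.947), STE2, the receptor for alpha factor (0.942), PRM6, a pheromone-regulated membrane protein (0.904), and SRL1, a cell wall mannoprotein (0.900). In YPD at 96 min AGA2 stood at 3.71 ± 1.29 (SD, n = 3), STE2 at 4.15 ± 0.16 and SRL1 at 3.48 ± 1.09, and in glucose at 128 min at 0.85 ± 0.24, 1.11 ± 0.25 and 0.99 ± 0.12. AGA2 was above background in Cy3 on 0 of 47 arrays.

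Among 6 genes of the pheromones and their receptors, those for alpha factor, MF(ALPHA)1 and MF(ALPHA)2, and MFA1, for a-factor, were called up at 64 min in YPD, when 22.9% of all genes were. MFA2 (0.46, adjusted p = 0.199) and the receptor genes STE2 (0.25, adjusted p = 0.447) and STE3 (0.10, adjusted p = 0.888) were not. At 96 min 5 of the 6 were called up (20.4% of all genes) and at 128 min 6 (18.5%), and the list had median changes of 0.69, 3.08 and 3.64 at the 3 times. MF(ALPHA)1, the main gene for alpha factor, rose most at 128 min, by 4.16 ± 0.31 (adjusted p = 1.63e-14), and had already risen by 2.45 at 64 min (adjusted p = 1.36e-08). In Cy3, MF(ALPHA)1 and MFA1 were above background on 5 of 52 arrays each and MFA2 on 5 of 53, so their dormant levels were near the limit of detection. MF(ALPHA)2 was above it on 39 of 44, STE2 on 22 of 53 and STE3 on 17 of 52. The mean over the 6 genes lay between 1.03 and 1.79 on the 64 min arrays, where that of the mating genes was at most 0.22. In glucose at 128 min 3 of the 6 were called up (11.4% of all genes), and the mean lay between 0.90 and 1.19. Genes of the a type (MFA1, MFA2, STE2) and of the alpha type (MF(ALPHA)1, MF(ALPHA)2, STE3) were both among those that rose in YPD.

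**Figure D4:**
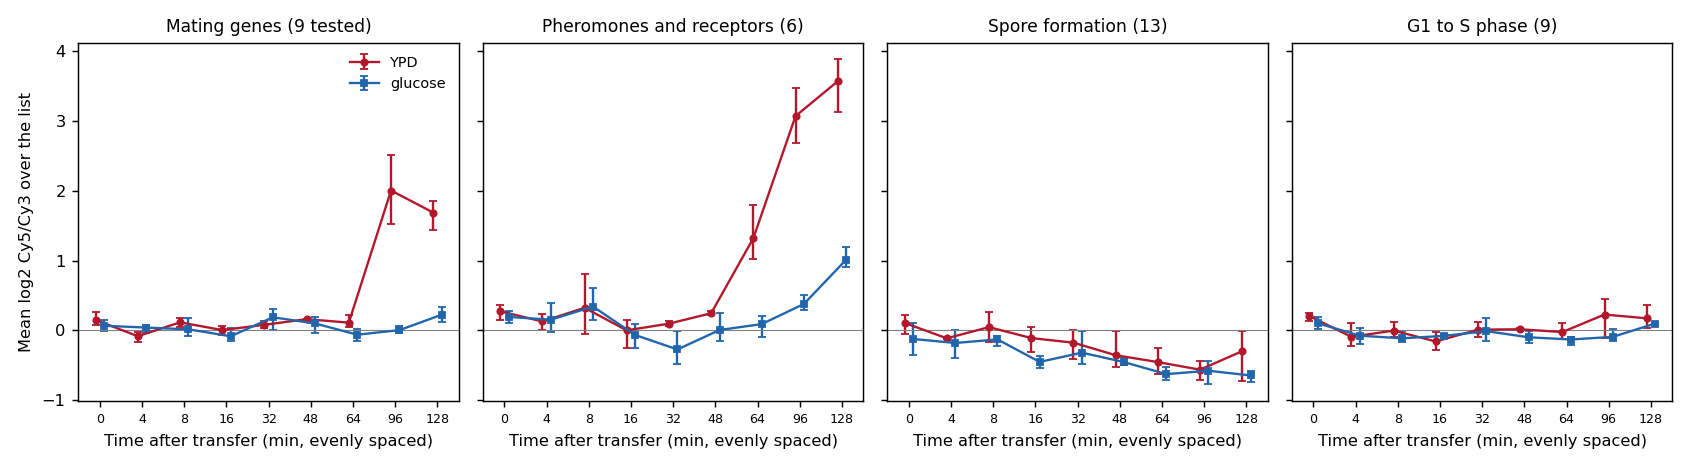
Mean log2 Cy5/Cy3 over the genes of a list against the sampled times in min, evenly spaced, in YPD (red circles) and glucose (blue squares); points are means over arrays and bars run from the lowest to the highest array. The mean of the 6 pheromone and receptor genes is above 1 from 64 min in YPD, where 3 of the 6 were called, and that of the 9 mating genes from 96 min. The mean of the spore formation markers includes SPS100, near -6 in YPD and usable on 1 array at 128 min, while their median change at 128 min was -0.17 in YPD and 0.20 in glucose.

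Of 6 negative regulators of the response, 5 were called up at 96 min in YPD, against 20.4% of all genes, with a median change of 1.16, and at 128 min 3 rose and 1 fell. SST2, which turns the G protein off, changed by 2.17 at 128 min (adjusted p = 1.60e-05). The gene that fell was MSG5, a phosphatase of Fus3, which had 1 usable array at 128 min, at -1.99, so that its call there takes its spread from the other groups. The list of 5 transcriptional regulators also held FAR1, which arrests the cell cycle in pheromone and is not a transcription factor. Of the 5 genes, 3 rose and 1 fell at 128 min. FAR1 changed by 2.72 (adjusted p = 2.63e-10) and DIG2, a repressor of Ste12, by -0.85 (adjusted p = 0.00141).

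The other genes of signalling changed in both directions at 128 min in YPD, 4 of 10 tested up and 2 down. CDC24, the exchange factor of Cdc42, rose by 1.37 (adjusted p = 0.00462), and STE11, a kinase of the cascade, fell by 1.79 (adjusted p = 3.86e-06). Of 13 other tested genes of agglutination and cell fusion, 5 rose and 1 fell, AGA2 by 3.09 (adjusted p = 1.91e-08) and PRM9 by -0.72 (adjusted p = 0.00769). Of 10 genes of nuclear fusion 4 rose and none fell at 128 min, led by the motor protein gene KAR3 with 1.33 (adjusted p = 4.09e-05). Of 8 tested genes of pheromone processing and export 3 rose, with STE6, the a-factor exporter, at 1.65 (adjusted p = 0.00330). These counts stand beside 18.5% of all genes called up and 25.8% called down at that time.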

How the data were processed

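The authors deposited, for each of 53 arrays, 1 file per dye with the unnormalized intensity of 13056 spots, quantified per the file headers with ImaGene 6.0.1 (the study's methods name other software), and 1 table with a mean log2 ratio per gene and group after loess normalization. That table was used as an alternative. Spot intensity was corrected with limma's normexp (offset 50), and log2 Cy5/Cy3 was normalized by global loess without control spots. Spots with a scanner flag for poor quality or set manually were dropped (8.49% to 24.4% of an array), and the 2 spots of a gene were averaged. Genes were read with the identifiers of each array's own layout. Of 6218 genes, 5826 were measured in each of the 18 groups and 392 were not tested; 5286 matched the reference table (assembly R64) by identifier. The mating genes and gene lists were chosen with earlier results of these data known.

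All 18 groups were fitted together (limma 3.58.1, R 4.3.3, lmFit and eBayes; Benjamini-Hochberg within a contrast, threshold 0.05). The methods call the arrays of a group independent experiments, and p-values measure the spread between them. The fit was tested on simulated data. With 3 arrays a group, the array number and the signal over background limit precision. Genes named beyond the 10 were, in each list, the called gene with the largest rise and fall at 128 min in YPD, and the 5 with the most similar profile. CLN1, CLN2, CLB6, POL1, CDC21, MFA1, MFA2, STE2, STE3 and MF(ALPHA)2 are listed markers. Alternatives changed background correction, normalization, intensity measure, spot flags, dim genes, replicates, blocks (statmod 1.5.0), groups in the fit, the criterion of onset and the source of values. Comparisons on arrays of the same day, and day as a fixed block, were added after the data were seen. No sequence and no coordinates were used here.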

Additional observations from a re-analysis of the deposited data

Results flagged for a closer look

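The change from 0 min differed between YPD and glucose, by limma's test of the difference itself, for 6 of the 9 tested mating genes at 96 min, when 1.03% of all genes had a larger rise in YPD. FIG2 rose by 3.41 more in YPD (± 0.30, SE; adjusted p = 8.87e-11), PRM1 by 3.29 (± 0.44; adjusted p = 1.89e-06), FUS3 by 2.28 (± 0.45; adjusted p = 0.00144), KAR4 by 2.26 (± 0.40; adjusted p = 0.000275), FIG1 by 2.21 (± 0.49; adjusted p = 0.00484) and FUS2 by 1.66 (± 0.45; adjusted p = 0.0261). At 128 min it differed for 3 genes, when 0.446% of all genes had a larger rise in YPD: FIG2 by 1.93 (± 0.30; adjusted p = 9.94e-05), PRM1 by 1.89 (± 0.44; adjusted p = 0.0109) and FUS3 by 1.62 (± 0.45; adjusted p = 0.0468). The difference for FUS2 was lost without any one replicate except glucose replicate 3 (adjusted p between 0.0794 and 0.181), that for FIG1 without glucose replicate 2 (1.61, adjusted p = 0.206), that for FUS3 at 128 min without any one replicate except glucose replicate 1 (adjusted p between 0.0535 and 0.319), and that for PRM1 at 128 min without YPD replicate 2, glucose replicate 1 or glucose replicate 2 (adjusted p between 0.0525 and 0.133). At 64 min no mating gene passed this test in limma. Glucose at 0 min has 2 arrays, which enter every one of these differences. Their causes were not tested.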

How the results depend on the processing

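The number of mating genes called up in glucose at 128 min, 1, rested on FUS1 and was the least stable count. It was 0 without background subtraction, with median intensity, with 1 medium in the fit, with quantification day as a fixed block, and without glucose replicate 1 or 2, and it was 2 with print-tip loess, with flagged spots kept, and without YPD replicate 3 or glucose replicate 3. When empty spots were left out, 4 genes at 96 min and 5 at 128 min were higher in YPD than in glucose, because FIG1, PRM1 and GPA1 could not be tested there, and none of the 6 tested lost a call between media. With day as a fixed block 4 genes were called up at 128 min in YPD, GPA1 had no value and no onset was set. Other counts stayed within 1.5 times the reported ones. The share of all genes called was not worked out for the counts given here under these alternatives. Leaving out single replicates gave 7 to 9 genes up in YPD at 96 min, 7 to 9 at 128 min, 7 and 6 to 8 higher in YPD than in glucose at these times, and 5 or 6 lower in glucose than in YPD at onset. The median onset was 96 min in every setting that gave one.

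The difference of FUS1 between media at 96 min turned to -0.032 without background subtraction and ran from -0.088 to 0.14 without single replicates, and that of STE12 from -0.21 to 0.80. FIG1 turned to -3.31 and -3.56 at 96 and 128 min in YPD with plain subtraction, and its difference between media in the change at 96 min to -0.44. FUS1 in glucose at 128 min against YPD at 96 min turned to 0.18 with print-tip loess. The cause was not tested. Of the single-gene values under an alternative, 1074 kept direction and call, 117 lost the call, 19 gained it, 8 turned, and 21 levels of the authors' table, all closer to 0, moved. The replicate block, with numbers that only file names carry and mean correlations of same-numbered arrays of 0.025 to 0.205, gave 9 and 8 genes up in YPD, 1 in glucose, and 7 and 7 between media. FIG1, PRM1, KAR4 and GPA1 were near background in dormant spores, so their early changes are limited by signal as well as by array number.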
